A study of Mus musculus with 768 samples.

Results

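The genes described here are the ligands, receptors and binding proteins of the insulin-like growth factor (IGF) system, chosen by their symbols: Igf1, Igf2, Igf1r, Igf2r, Igfbp2, Igfbp3, Igfbp4, Igfbp5, Igfbp6 and Igfbp7, which are 10 of the 24490 endogenous genes in the tables. All 10 were found. They were measured by single-cell RNA-seq (Smart-seq2) in 768 wells, each with 1 cell sorted from mammary tumors as negative for EpCAM, CD45, CD31 and NG2, a gate meant to leave cancer-associated fibroblasts (CAFs) and to remove pericytes (NG2) along with epithelium, leukocytes and endothelium. The 2 tumors came from mice of the strain FVB/N-Tg(MMTVPyVT)634Mul/J at an age of 14 weeks, in which the MMTV promoter drives the polyoma middle T oncogene in the mammary epithelium. All wells thus belong to a single group with no treatment and no tumor-free control. The replicate is the tumor (n = 2), and since each was sorted into its own plate, tumor and plate cannot be told apart.

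IGF1 and IGF2 are secreted growth factors that act through IGF1R, a receptor tyrosine kinase, whereas IGF2R takes up IGF2 and sorts lysosomal enzymes and carries no kinase. The binding proteins hold the ligands outside the cell, prolong their life and limit or prolong their access to the receptor, and proteases release the ligands again. IGFBP7 differs from the others in binding the ligands only weakly and is known from the basement membrane of blood vessels. In mammary tissue the stroma is a known source of IGF1, and IGFBP5 is known from the involuting gland.

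Of the 768 wells, 41 had under 10000 endogenous reads and were left out. The other wells, called kept wells below, held 10281 to 1190516 endogenous reads with a median of 207477. Each kept well was put in a class by its leading marker among Rgs5 (vascular CAF), Dcn (matrix CAF) and Trf: the marker had to reach an RPKM (reads per kilobase of gene model, scaled to the reads of the well) of 50 and to lie at least 2 log2 units above both others. Rgs5-high wells were 68.9% of the kept wells (70.8% in tumor 1 and 66.9% in tumor 2), Dcn-high wells 21.6% (82 wells in tumor 1 and 75 in tumor 2) and Trf-high wells 3.71% (7 and 20 wells). Another 42 wells had no class, and 43 wells lay within 1 log2 unit of a limit. The classes were rebuilt from these markers and are not the study's own clusters. By the mean log2(RPKM + 1) over the tumors, all 10 listed vascular genes were highest in Rgs5-high wells, all 10 listed matrix genes in Dcn-high wells and all 7 genes of the Trf list in Trf-high wells. By the median RPKM, the matrix gene Vcan was higher in Trf-high than in Dcn-high wells in both tumors (90.99 against 45.2 in tumor 1 and 60.3 against 53.5 in tumor 2), and Fbln2 in tumor 1 (329.5 against 306.6). Each list holds the gene that made the class, which is highest there by construction, and the classes were made from the same wells, so these counts describe the classes and test nothing. Endothelial genes were above 0 in 3, 4 and 1 wells of the Rgs5-high, Dcn-high and Trf-high classes and adipocyte genes in 1, 1 and 0. Immune genes were above 0 in 2.99%, 15.3% and 7.41% of the wells, most often in Dcn-high wells. These shares came from Cd68 and Csf1r, while Ptprc and Cd3e were read in 0 wells of each class. The part of immune genes in the results on Dcn-high wells was not tested.

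The Trf-high wells also carried genes of other cell types. At least 1 of 6 epithelial genes (Epcam, Krt8, Krt18, Krt5, Krt14, Cdh1) was above 0 in 21 of 27 Trf-high wells. The share was 18.6% of Rgs5-high and 30.6% of Dcn-high wells. By the mean log2(RPKM + 1) over the tumors, all 6 were highest in Trf-high wells. In tumor 2 alone Krt14 was read in 0 of 20 Trf-high wells, with a mean of 0 against 0.184 in Dcn-high and 0.051 in Rgs5-high wells. In tumor 1 it was read in 2 of 7 Trf-high wells. The summed RPKM of the 6 genes in Trf-high wells had medians of 21.5 and 29.7 in tumors 1 and 2 and ranged from 0 to 5305. Its median was 0 in the other classes. Of a Schwann cell list, S100b was read in 5 of 7 and 18 of 20 Trf-high wells and Mbp in 0 and 5. The list was above 0 in 23 of 27 Trf-high, 8.58% of Rgs5-high and 21.02% of Dcn-high wells, and its summed RPKM in Trf-high wells had medians of 508.98 and 81.2. The part of these cells or of their RNA in the results on Trf-high wells was not tested, and values with and without such wells are given for Igfbp2, Igfbp3, Igfbp4, Igfbp5 and Igfbp7.

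Over all kept wells, Igfbp7 was the most abundant of the 10 genes, with a mean log2(RPKM + 1) of 11.42 ± 0.36 (SD over tumors, n = 2), and Igfbp4 came next with 6.05 ± 0.49. The receptor Igf2r had 2.96 ± 0.42. Igfbp2 with 1.93 ± 0.07, Igfbp6 with 1.74 ± 0.09, Igfbp3 with 1.72 ± 0.04, Igfbp5 with 1.72 ± 0.25, and Igf1r with 1.71 ± 0.18 followed, and the last 4 of these did not differ beyond their spread. Igf1 had 1.24 ± 0.16 and Igf2 was lowest with 0.24 ± 0.02. The order depends on the scale: by mean RPKM, Igfbp2 (158.6 ± 12.9), Igfbp5 (100.6 ± 28.02), Igfbp3 (76.01 ± 17.5) and Igfbp6 (33.3 ± 3.18) all lay above Igf2r (16.5 ± 5.17). RPKM is per gene length, so these levels can be compared between genes. A mean over all wells hides the classes, as the plot of single wells shows.

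**Figure D1:**
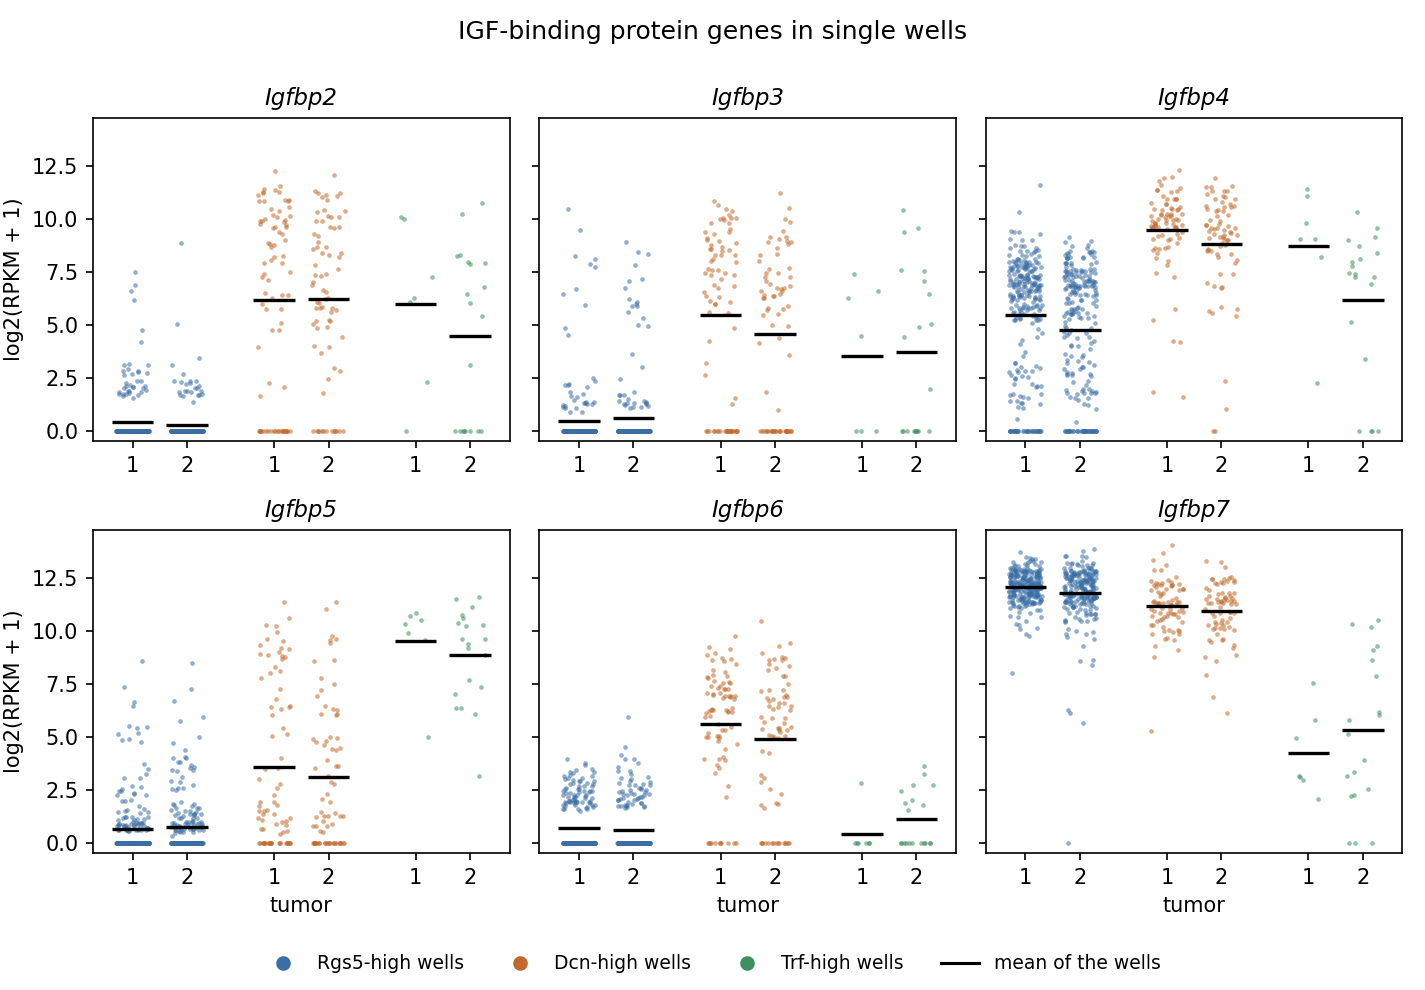
Level of each binding protein gene in single wells as log2(RPKM + 1), by class (color) and tumor (1 and 2 on the horizontal axis). Points are wells and black lines are means over the wells. Igfbp7 fills Rgs5-high and Dcn-high wells and drops in Trf-high wells, Igfbp6 is high in Dcn-high wells, and Igfbp5 has its highest means, 9.55 and 8.87, in Trf-high wells.

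The promoter bases of the binding proteins that set the classes apart are shown for reference, together with Igfbp2 as the neighbour of Igfbp5. Each line gives the 250 bases before the annotated start, 5′ to 3′ on the strand of the gene, from RefSeq in the build GRCm38.p6. Capitals mark matches to TATAAA (the TATA box letters), GGGCGG (the GC box letters) and CCAAT. Both strands were searched, and a match on the other strand stands as its reverse complement.
Igfbp7, chr5:77408046-77408295, minus strand: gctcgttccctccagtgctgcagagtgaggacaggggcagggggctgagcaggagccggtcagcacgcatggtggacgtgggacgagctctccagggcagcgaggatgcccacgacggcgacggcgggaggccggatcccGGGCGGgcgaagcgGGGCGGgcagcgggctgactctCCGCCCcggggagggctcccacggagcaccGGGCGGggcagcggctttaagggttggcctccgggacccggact
Igfbp6, chr15:102143936-102144185, plus strand: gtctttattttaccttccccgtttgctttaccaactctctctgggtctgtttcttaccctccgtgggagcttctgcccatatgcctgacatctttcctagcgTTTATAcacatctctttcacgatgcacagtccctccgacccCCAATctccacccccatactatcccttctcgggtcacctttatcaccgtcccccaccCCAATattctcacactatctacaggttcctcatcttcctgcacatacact
Igfbp5, chr1:72874866-72875115, minus strand: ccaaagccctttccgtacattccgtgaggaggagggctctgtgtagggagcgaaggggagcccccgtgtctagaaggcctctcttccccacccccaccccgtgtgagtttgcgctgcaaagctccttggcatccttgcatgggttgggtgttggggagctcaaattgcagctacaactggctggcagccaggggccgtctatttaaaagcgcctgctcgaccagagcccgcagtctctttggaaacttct
Igfbp2, chr1:72824230-72824479, plus strand: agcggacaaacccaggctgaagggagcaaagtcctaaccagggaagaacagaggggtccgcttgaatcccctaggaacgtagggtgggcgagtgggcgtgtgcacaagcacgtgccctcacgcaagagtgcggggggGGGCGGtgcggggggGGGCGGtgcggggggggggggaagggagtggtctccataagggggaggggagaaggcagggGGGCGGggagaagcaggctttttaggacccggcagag
These windows differ in base composition. The Igfbp7 window held 74% G and C and 26 CG pairs with 4 matches to GGGCGG, 3 on the plus and 1 on the minus strand of the window, and the Igfbp2 window at its first annotated start held 67.2% and 14 CG pairs with 3 matches. The Igfbp6 window, with 49.6% G and C and 7 CG pairs, held 2 matches to CCAAT and 1 to TATAAA on the opposite strand. The Igfbp5 window, with 58.8% and 10 CG pairs, held none of these letters. Among 32851 windows of the same length, 32.7% held GGGCGG, 33.8% held CCAAT and 12.4% held TATAAA, and the median window had 52.4% G and C and 6 CG pairs.

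Differences between classes were tested on reads summed over the wells of a class within a tumor, 6 libraries in all, with edgeR's quasi-likelihood test and Benjamini-Hochberg adjustment over 11715 genes. A class was compared with the mean of the other 2 on the log2 scale, and then with each of them alone. Values per library are given as CPM, the reads of a gene scaled to a common library size with TMM. All 10 members passed the filter on low values (mean RPKM of 1 or more). Of the members, 0 were called higher and 5 lower in Rgs5-high wells, 6 higher and 0 lower in Dcn-high wells, and 2 higher and 4 lower in Trf-high wells. Among all genes 8.93%, 8.4% and 14.5% were called in these comparisons in either direction. The higher calls took 5.63%, 6.85% and 5.99% of all genes, and the lower calls 3.3%, 1.55% and 8.53%.

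Scaling moved all genes together in some comparisons. With the ERCC spike-in totals as library sizes the median log2 fold change of all genes went from 0.09 to -0.57 in Rgs5-high wells, from 0.07 to 0.41 in Dcn-high wells and from -0.12 to 0.20 in Trf-high wells. The share of the calls that were higher then went from 63% to 27.4% in Rgs5-high wells and from 41.3% to 58.5% in Trf-high wells. The members called under TMM kept their direction under this scaling.

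**Figure D2:**
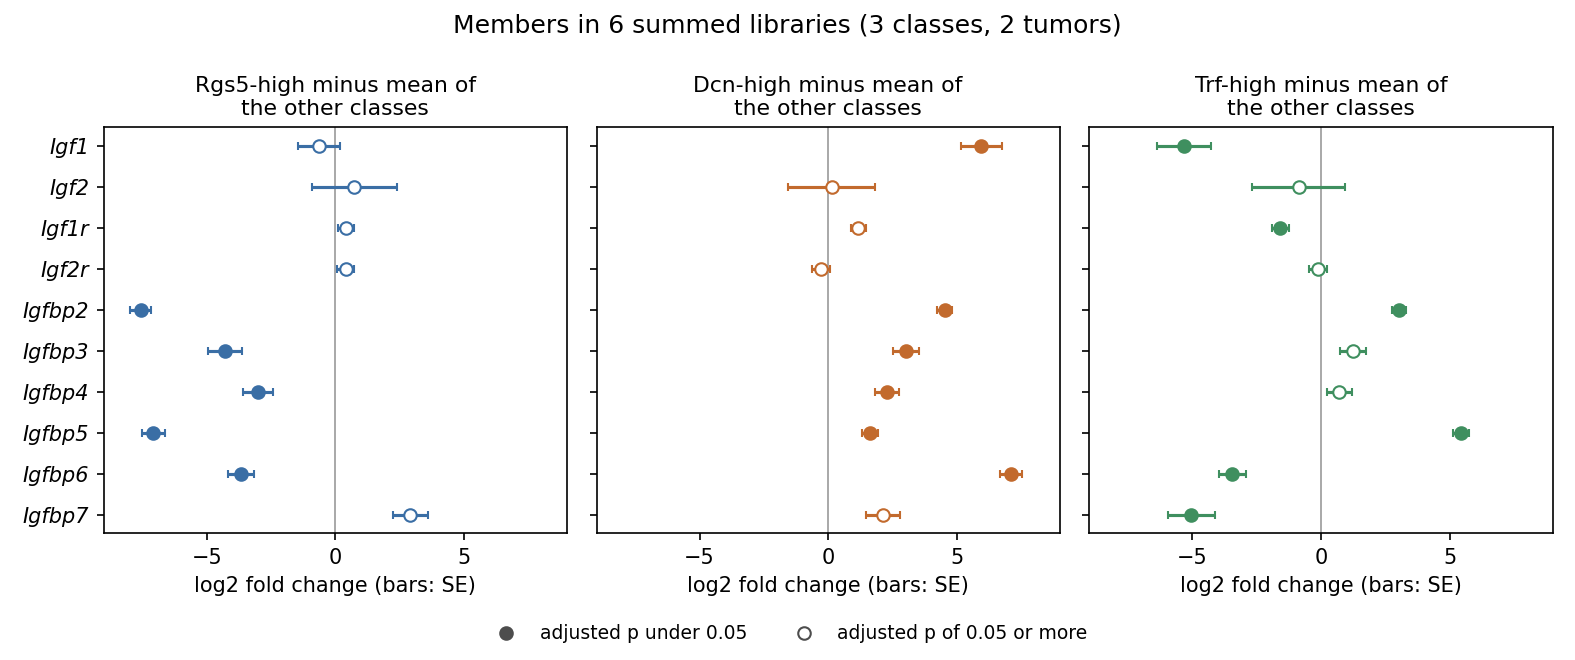
Log2 fold change of the 10 genes in each class against the mean of the other classes, from 6 summed libraries. Bars are standard errors, filled points passed an adjusted p of 0.05 and open points did not. In Rgs5-high wells 5 binding proteins were lower, in Dcn-high wells 5 binding proteins and Igf1 were higher, and in Trf-high wells Igfbp5 and Igfbp2 were higher.

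Igfbp7 made up nearly all binding protein RNA of Rgs5-high wells. Its RPKM there ran from 257.1 over a median of 4544 to 13575 in tumor 1 and from 0 over a median of 4030.2 to 15199 in tumor 2, and 99.8% of the wells had a read. By RPKM it was the leading binding protein of 99.6% and 99.2% of the wells (exact 95% intervals 97.9 to 100% and 96.99 to 99.9%, counting error only). It took 96.9% and 97.6% of the summed mean RPKM of the 6 binding proteins. Igfbp4 was second in 77.8% of the wells.

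The level of Igfbp7 was not called different between Rgs5-high and Dcn-high wells. In Dcn-high wells its RPKM ran from 37.1 over a median of 2423 to 17204 in tumor 1 and from 69.3 over 2566 to 10159 in tumor 2, so that the wells of these classes overlapped, and each Dcn-high well had a read. The summed libraries had 6030 and 5388 CPM in Rgs5-high wells and 4160.1 and 3736 CPM in Dcn-high wells. Both Rgs5-high libraries thus lay above both Dcn-high libraries. The log2 difference was 0.53 ± 0.79 (SE, adjusted p = 0.88, edgeR, and 0.90 with the tumor as a replicate block). Class size enters the next shares, since Rgs5-high, Dcn-high and Trf-high wells were 68.9%, 21.6% and 3.71% of all kept wells. Of the wells with a class that were led by Igfbp7, 80.98% were Rgs5-high, 18.7% Dcn-high and 0.325% Trf-high. It took 56.1% and 59.3% of the summed binding protein RPKM in Dcn-high wells and led 55 of 82 and 60 of 75 of them by RPKM (48.8% and 49.3% by read count), while Igfbp4 led 26 Dcn-high wells and Igfbp2 led 9.

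Igfbp7 fell in Trf-high wells. There its median RPKM was 7.98 in tumor 1 and 44.2 in tumor 2, with highest wells of 188.8 and 1491, and the summed libraries had 36.2 and 249.7 CPM. Against the mean of the other classes the log2 fold change was -5.04 ± 0.91 (adjusted p = 0.021, edgeR), against Rgs5-high wells it was 5.31 ± 0.95 log2 units lower (adjusted p = 0.024), and against Dcn-high wells 4.78 ± 0.93 lower (adjusted p = 0.032, and 0.058 with the tumor as a replicate block). The top well held 51.4% and 46.8% of the Igfbp7 reads of these libraries, and 8 of 27 wells reached an RPKM of 100. Rgs5 itself was read in 26 of 27 Trf-high wells at median RPKMs of 7.58 and 6.49. Igfbp7 had 0.506 and 0.512 reads per Rgs5 read in Rgs5-high wells. In Trf-high wells it had 2.85 and 14.2, and in Dcn-high wells 121.8 and 188.97. Since Rgs5 made the classes, this ratio was bound to differ between them and tests nothing. Whether Igfbp7 reads in Trf-high wells are carried over was not tested. In the gene table, Igfbp7 (chr5:77349240-77408045, minus strand) overlaps Polr2b, and the reads of overlapping genes could be split between them by the counting. Polr2b had 11484 reads against 606734 of Igfbp7 in Rgs5-high wells, but 848 against 1110 in Trf-high wells, and what share of the Trf-high reads belongs to each was not tested.

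As a contrast of Rgs5-high wells with the mean of the other classes, Igfbp7 had a log2 fold change of 2.92 ± 0.66 and just missed the threshold (adjusted p = 0.055, edgeR). In 16 other settings of the processing the adjusted p ranged from 0.0003 to 0.089 and passed in 5. No binding protein was therefore called higher in Rgs5-high wells, and what the test found there were 5 binding proteins at lower levels.

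**Figure D3:**
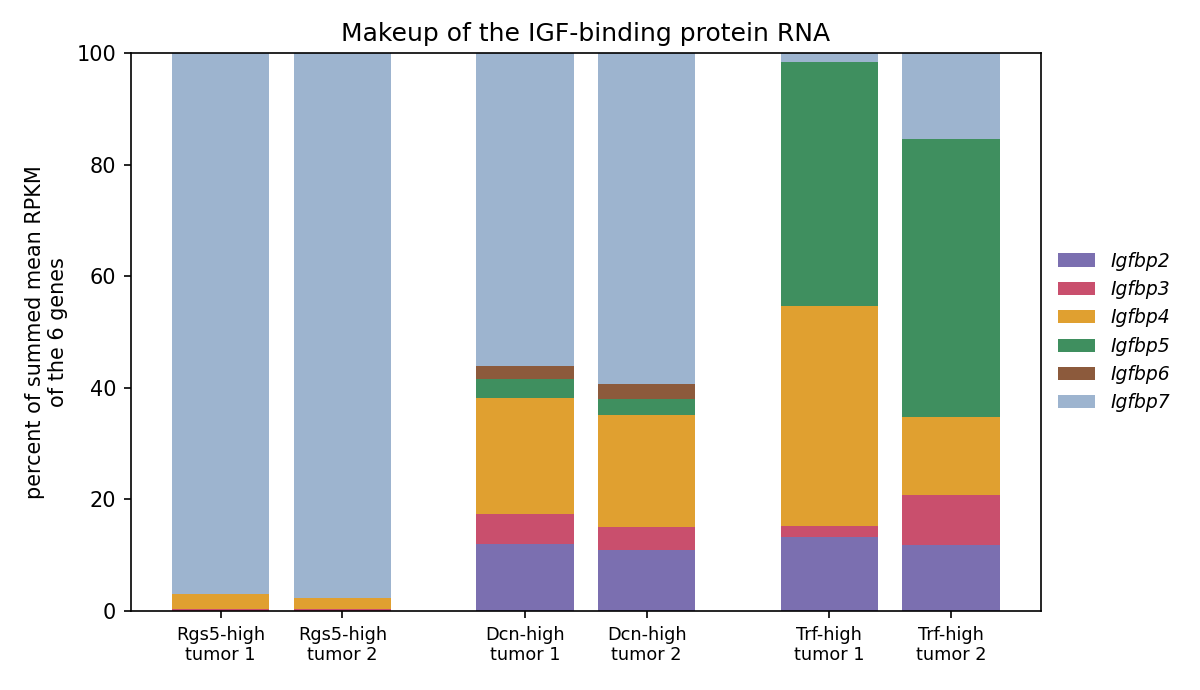
Share of each binding protein gene in the summed mean RPKM of the 6 genes, for each class and tumor, as stacked bars from 0 to 100%. Igfbp7 takes 96.9% and 97.6% in Rgs5-high wells, and Igfbp5 is the largest part of both Trf-high bars.

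Igfbp2, Igfbp5, Igfbp3, Igfbp6 and Igfbp4 fell in Rgs5-high wells, in that order of size. Igfbp2, which carries an integrin-binding motif, had 3.08 and 4.87 CPM there against 1235 and 879.5 CPM in Dcn-high and 585.8 and 477.5 CPM in Trf-high wells (log2 fold change -7.56 ± 0.41, adjusted p = 0.00089, edgeR). It was read in 14.4% and 10.55% of Rgs5-high wells, in 4.69% and 2.24% of them after thinning to 50000 reads and with at least 5 reads in 2.27% and 0.844%, and 1 well held 85.9% of the reads in tumor 2. Igfbp5 was 7.07 ± 0.46 log2 units lower (adjusted p = 0.0016), Igfbp3 4.28 ± 0.66 lower (adjusted p = 0.018, and 0.053 with the tumor as a replicate block), Igfbp6 3.66 ± 0.49 lower (adjusted p = 0.012, and 0.079 with a 2-fold margin between markers) and Igfbp4 3.00 ± 0.58 lower (adjusted p = 0.037, and 0.068 without the wells with an Epcam read). Igfbp4 was the exception in kind, since it was low but common: it was read in 87.1% and 82.7% of Rgs5-high wells with median RPKMs of 85.9 and 52.3. The mean number of binding proteins with a read per well was 2.73 in Rgs5-high, 4.97 in Dcn-high and 4.33 in Trf-high wells, at median depths of 198206, 262023 and 232294 endogenous reads.

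Igfbp6, a binding protein with a preference for IGF2, was the one that set Dcn-high wells apart from both other classes. Its RPKM in Dcn-high wells ran from 0 over a median of 76.1 to 866 in tumor 1 and from 0 over 43.3 to 1442 in tumor 2, and 71 of 82 and 60 of 75 wells had a read. In Rgs5-high wells no well reached more than 4 reads, the highest RPKM was 60.7, and 28.8% and 23.6% of the wells had any read (7.03% and 8.52% after thinning to 50000 reads). In Trf-high wells 10 of 27 wells had a read and the highest RPKM was 11.2. The summed reads were 4072 and 3779 in Dcn-high, 91 and 81 in Rgs5-high, and 1 and 11 in Trf-high wells, or 219.8 and 254.98 CPM against 1.61 and 1.64 CPM and 0.489 and 2.65 CPM.

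The wells of the classes overlapped for Igfbp6 at low values, while the summed libraries did not overlap. Igfbp6 was 7.12 ± 0.44 log2 units higher in Dcn-high wells than in the mean of the others (adjusted p = 0.0018, edgeR), 7.19 ± 0.58 higher than in Rgs5-high wells (adjusted p = 0.0043) and 7.05 ± 0.61 higher than in Trf-high wells (adjusted p = 0.0035). Rgs5-high and Trf-high wells differed by -0.14 ± 0.56 (adjusted p = 0.91), so the calls of Igfbp6 as lower in each of them come from its level in Dcn-high wells. Dcn itself, which made the class, was read in 42.9% of Rgs5-high and 40.7% of Trf-high wells, and the shares of Igfbp6 there, 26.3% and 37.0%, lay below these. Per Dcn read there were 0.0857 and 0.161 Igfbp6 reads in Rgs5-high, 0.0376 and 0.0536 in Dcn-high, and 0.0222 and 0.229 in Trf-high wells, the last from 1 and 11 Igfbp6 reads. Since Dcn made the classes, these ratios depend on the class rule. The Trf-high ratios span those of the other classes, and whether the Igfbp6 reads outside Dcn-high wells are carried over was not tested.

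In the comparisons between single classes, 0 members were higher and 5 lower in Rgs5-high than in Dcn-high wells, where 5.88% of all genes were called (2.07% higher and 3.81% lower). Between Rgs5-high and Trf-high wells 1 member was higher and 3 lower, beside 12.9% of all genes (7.8% higher and 5.06% lower). Between Dcn-high and Trf-high wells 4 members were higher and 1 lower, beside 11.4% of all genes (8.07% higher and 3.36% lower). These comparisons share libraries with each other and with those against the mean of the other classes.

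Of the other binding proteins called higher in Dcn-high wells, Igfbp2 was also called higher in Trf-high wells, while Igfbp3 (1.23 ± 0.50, adjusted p = 0.17, edgeR) and Igfbp4 (0.71 ± 0.49, adjusted p = 0.39) were not. Igfbp2 ran from 0 over median RPKMs of 211.2 and 94.5 to 5032 and 4325 in Dcn-high wells and from 0 over 76.1 and 53.4 to 1102 and 1742 in Trf-high wells. It was higher in Dcn-high wells than in the mean of the others by 4.52 ± 0.27 (adjusted p = 0.0018, edgeR) and in Trf-high wells by 3.03 ± 0.26 (adjusted p = 0.0029). The direct difference of Dcn-high and Trf-high wells was 0.99 ± 0.32 and did not pass (adjusted p = 0.11). In Trf-high wells 1 well held 55.5% of the Igfbp2 reads in tumor 1 and 46.7% in tumor 2.

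Igfbp3, the main carrier of IGFs in serum, was higher in Dcn-high wells by 3.04 ± 0.51 (adjusted p = 0.023, edgeR, and 0.063 with the tumor as a replicate block). Its summed libraries had 1039.7 and 548.1 CPM in Dcn-high, 160.5 and 525.5 CPM in Trf-high, and 30.4 and 23.5 CPM in Rgs5-high wells, so the Trf-high library of tumor 2 lay beside the Dcn-high library of the same tumor. Against Rgs5-high wells alone the differences were 4.88 ± 0.71 for Dcn-high (adjusted p = 0.022, and 0.060 with the block) and 3.67 ± 0.67 for Trf-high wells (adjusted p = 0.025, and 0.063 with the block). Without the wells that had an Epcam read, the call in Dcn-high wells was lost (adjusted p = 0.059). Over 16 other settings the log2 fold change of Igfbp3 in Dcn-high wells ranged from 2.83 to 3.38, and 14 passed.

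Igfbp4, which is cut by the protease PAPP-A, was read in all 82 and in 73 of 75 Dcn-high wells with median RPKMs of 912.2 and 642.01. Its CPM was 3316.7 and 2682.7 in Dcn-high, 2235.1 and 654.2 in Trf-high, and 303.5 and 215.1 in Rgs5-high wells. It was higher in Dcn-high wells by 2.29 ± 0.48 (adjusted p = 0.045, edgeR), and this call was lost in 3 of 16 other settings, without the wells with an Epcam read (adjusted p = 0.13), with DESeq2's size factors (adjusted p = 0.052) and with each well scaled to the same total (adjusted p = 0.056). Over these 16 settings the log2 fold change ranged from 2.04 to 2.67. By mean log2(RPKM + 1) in Trf-high wells, the 2 tumors stood further apart for Igfbp4 than for any other binding protein. The means were 8.71 in tumor 1 and 6.20 in tumor 2, from 7 and 20 wells. In fold of the CPM, Igfbp7 (36.2 and 249.7) and Igfbp6 (0.489 and 2.65) stood further apart than Igfbp4.

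Igfbp5, a binding protein that attaches to extracellular matrix, was the one that marked Trf-high wells. All 27 Trf-high wells had a read. Its RPKM ran from 30.5 over a median of 1294 to 1840 in the 7 wells of tumor 1 and from 7.74 over 728.4 to 3163 in the 20 wells of tumor 2. It was the leading binding protein of 3 of 7 and 12 of 20 wells (42.9% and 60%, exact 95% intervals 9.90 to 81.6% and 36.1 to 80.9%), or of 6 of 7 and 18 of 20 by read count, which is not per gene length, and took 43.7% and 49.9% of the summed binding protein RPKM. Of the 18 wells with a class that were led by Igfbp5, 15 were Trf-high, 3 Dcn-high and 0 Rgs5-high. By read count Igfbp5 led 24 Trf-high, 14 Dcn-high and 2 Rgs5-high wells.

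The summed libraries had 6093.9 and 6670.5 CPM of Igfbp5 in Trf-high wells, 1461.9 and 733.4 CPM in Dcn-high wells, and 19.3 and 20.1 CPM in Rgs5-high wells. The order was the same in both tumors and no library of one class reached into another. Igfbp5 was higher in Trf-high wells than in the mean of the others by 5.44 ± 0.32 (adjusted p = 0.0011, edgeR), than in Rgs5-high wells by 8.34 ± 0.49 (adjusted p = 0.0012) and than in Dcn-high wells by 2.54 ± 0.38 (adjusted p = 0.015). The top well held 21.4% and 24.6% of the reads. In the 6 Trf-high wells without a read of the epithelial list Igfbp5 had a median RPKM of 182.5, from 7.74 to 2898, against 948, from 30.5 to 3163, in the 21 wells with one. In the 4 wells without a read of the Schwann cell list the median was 1307, against 794.7 in the other 23, and of these 4 wells 1 had a read of Igfbp2 and 0 had a read of Igfbp3. For the other binding proteins of Trf-high wells, the median RPKM with and without a read of the epithelial list was 14.1 and 63.3 for Igfbp7, 2.97 and 81.7 for Igfbp3, 296.2 and 202.5 for Igfbp4 and 66.3 and 41.9 for Igfbp2. With and without a read of the Schwann cell list it was 29.9 and 98.2 for Igfbp7, 29.03 and 0 for Igfbp3, 273.5 and 1.88 for Igfbp4 and 86.9 and 0 for Igfbp2. Of the 4 wells without a read of the Schwann cell list, 2 had a read of Igfbp4, with RPKMs up to 540.6, whereas all 4 had a read of Igfbp5.

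In Dcn-high wells Igfbp5 was called higher than in the mean of the others by 1.63 ± 0.30 (adjusted p = 0.032, edgeR, and 0.068 with the tumor as a replicate block) while it lay below Trf-high wells. Its wells were uneven there. The median RPKM was 2.12 and 1.70, yet 22 of 82 and 12 of 75 wells reached 100 and the highest were at 2680 and 2649, and 1 well held 40.9% of the reads in tumor 2. In Rgs5-high wells 3 and 3 wells reached an RPKM of 100.

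Over all wells, Spearman's rho between Igfbp2 and Igfbp5, which lie tail to tail on chromosome 1 (chr1:72824480-72852474 on the plus and chr1:72858065-72874865 on the minus strand) with 5590 bases between them, was 0.34 in tumor 1 and 0.31 in tumor 2 (all kept wells of a tumor). Among Dcn-high wells alone it was 0.03 and 0.02 (82 and 75 wells). Igfbp2 and Igfbp3 had 0.32 and 0.41 among Dcn-high wells, and Igfbp3 and Igfbp4 0.32 and 0.29, while with the number of endogenous reads Igfbp2 had 0.17 and -0.06, Igfbp3 0.23 and 0.12, and Igfbp4 0.24 and 0.30. In the 20 Trf-high wells of tumor 2, Igfbp4 had 0.55 with Igfbp2, 0.54 with Igfbp3 and 0.49 with Igfbp5, while with the number of endogenous reads Igfbp2 had 0.77, Igfbp3 0.49, Igfbp4 0.46 and Igfbp5 0.28. Wells of a tumor share the animal, the plate and differences in depth, so these are descriptions. Both Igfbp2 and Igfbp6 had a read in 66.2% of Dcn-high, 3.79% of Rgs5-high and 22.2% of Trf-high wells.

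The genes whose levels over all kept wells were most like those of a binding protein were taken by the mean of the rho in tumors 1 and 2, over 10944 genes. For Igfbp2 they were Pdpn (0.62), the matrix gene Hmcn1 (0.61) and Itgbl1 (0.60), for Igfbp3 Pdpn (0.56), Tenm3 (0.52) and the fibroblast receptor Pdgfra (0.52), for Igfbp4 Pdpn (0.53), Clec11a (0.53) and Fmo1 (0.52), and for Igfbp6 Pdpn (0.56), Pdgfra (0.56) and Lsp1 (0.55). Pdpn, podoplanin, thus stood first for all 4. All rho of this paragraph were taken over wells of all classes, so shared class membership enters them. They were not taken within a class. Among the genes closest to Igfbp5 were Gja1, a gap junction gene, and the basement membrane collagen Col4a5, both at 0.41. The ligand Igf1 was closest to Lsp1, Abi3bp and Svep1, each at 0.52. Igfbp7, looked at after its values were seen since it was called higher in no class, was closest to the basement membrane collagens Col18a1 (0.55) and Col4a2 (0.53) and to Serpine2 (0.51).

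The ligand Igf1 rose in Dcn-high wells. Its RPKM there ran from 0 over a median of 25.2 to 251.3 in tumor 1 and from 0 over 24.1 to 708.5 in tumor 2, and 60 of 82 and 49 of 75 wells had a read, against 10.6% and 18.6% of Rgs5-high wells and 0 of 7 and 3 of 20 Trf-high wells. The libraries had 322.8 and 675.1 CPM in Dcn-high, 13.1 and 34.6 CPM in Rgs5-high, and 0 and 4.58 CPM in Trf-high wells, where no read among 1815459 in tumor 1 allows up to 1.65 CPM before scaling (3 counts, counting error only). Igf1 was 5.95 ± 0.80 log2 units higher in Dcn-high wells than in the mean of the others (adjusted p = 0.012, edgeR) and 7.51 ± 1.18 higher than in Trf-high wells (adjusted p = 0.018), a value that depends on the empty library. Against Rgs5-high wells the difference was 4.39 ± 0.97 (adjusted p = 0.065, and 0.045 with the tumor as a replicate block).

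Igf1 was also called lower in Trf-high wells (-5.32 ± 1.06, adjusted p = 0.028, edgeR), where its 19 reads in tumor 2 came mostly from 1 well with 15. Both Igf1 calls were lost when each class was set by 3 marker genes (adjusted p = 0.094 in Dcn-high and 0.49 in Trf-high wells). Among the Dcn-high wells the rho of Igf1 with Dcn was 0.28 and 0.40, while that with Igfbp7 was -0.47 in tumor 1 and -0.10 in tumor 2.

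Igf2, the other ligand and an imprinted gene, was read in few wells. It had a read in 43 of the kept wells (5.91%, exact 95% interval 4.31 to 7.88%), 34 of them Rgs5-high. The libraries had 7.29 and 3.52 CPM in Rgs5-high, 0.108 and 8.10 CPM in Dcn-high, and 0 and 4.82 CPM in Trf-high wells, and the adjusted p in the 3 comparisons were 0.87, 0.99 and 0.79 (edgeR), with standard errors of 1.66 to 1.82 log2 units. The highest well, chosen after its value was seen, belonged to no class and had an RPKM of 650.3. Igf2os and Mir483, which overlap Igf2 on chromosome 7 (chr7:142650768-142666816, minus strand), had 0 reads.

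**Figure D4:**
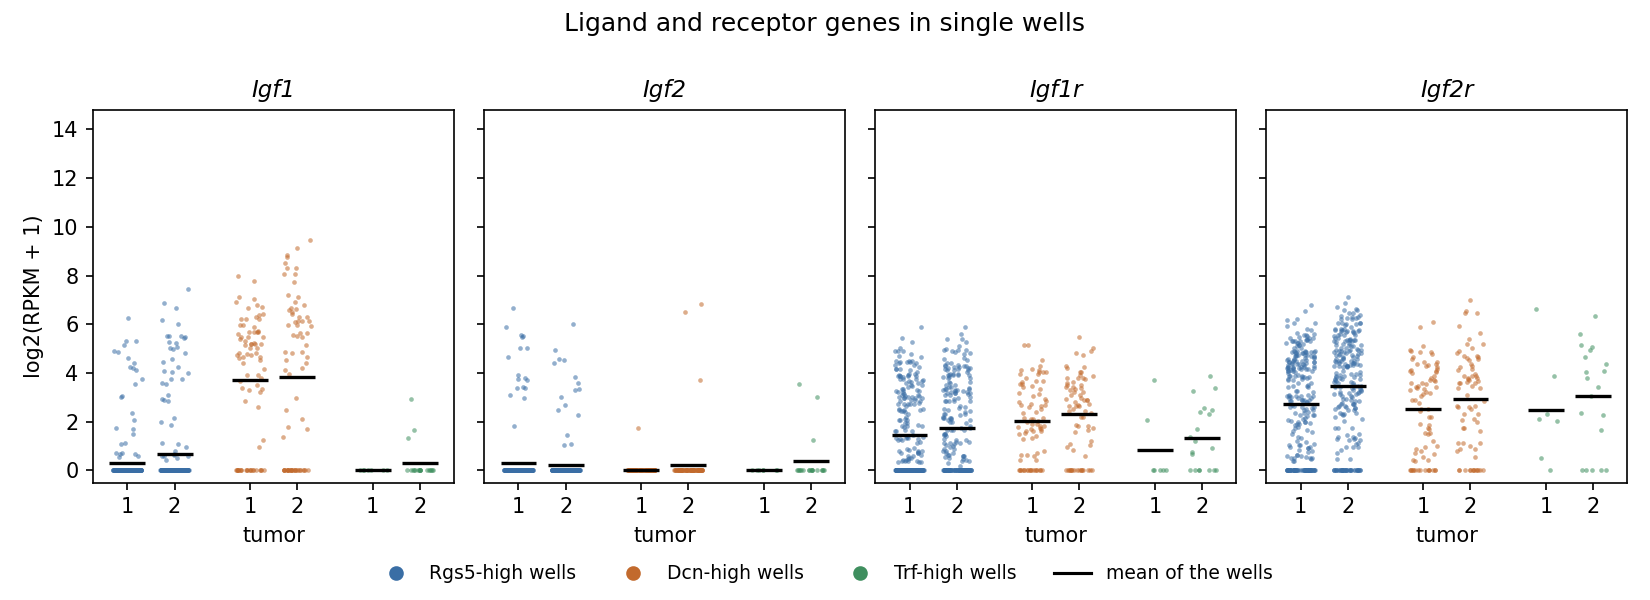
Level of the ligand genes Igf1 and Igf2 and of the receptor genes Igf1r and Igf2r in single wells as log2(RPKM + 1), by class (color) and tumor. Points are wells and black lines are means. Igf1 is raised in Dcn-high wells with means of 3.73 and 3.83, Igf2 lies at 0 in most wells, and the receptors spread over all classes.

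The receptors were present in every class at low levels. Igf1r was read in 53.8% and 61.2% of Rgs5-high, 78.05% and 77.3% of Dcn-high and 28.6% and 65% of Trf-high wells. It had 63.3 and 82.4 CPM, 81.2 and 124.8 CPM, and 24.5 and 33.3 CPM in these classes. It was called lower in Trf-high wells (-1.58 ± 0.33, adjusted p = 0.032, edgeR), and in the direct comparison it was 1.83 ± 0.36 higher in Dcn-high than in Trf-high wells (adjusted p = 0.034). The call in Trf-high wells was lost without the wells with an Epcam read (adjusted p = 0.078) and passed in 11 of 16 other settings, and 1 well held 78% of the 50 reads of tumor 1.

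Igf2r was read in 76.9% and 83.97% of Rgs5-high, 81.7% and 82.7% of Dcn-high and 85.7% and 75% of Trf-high wells, and no comparison called it (log2 fold changes of 0.40 ± 0.34, -0.28 ± 0.34 and -0.12 ± 0.34, adjusted p = 0.59, 0.74 and 0.85, edgeR). Its libraries had 145.5 and 214.1 CPM in Rgs5-high, 115.2 and 147.3 CPM in Dcn-high, and 94.9 and 186.6 CPM in Trf-high wells, so tumor 2 was higher than tumor 1 in each class. Airn, a non-coding RNA from the opposite strand of Igf2r (chr17:12682406-12769706, minus strand), had 2981 reads in Rgs5-high wells and 13 in Trf-high wells, against 18799 and 968 of Igf2r. Smart-seq2 does not keep the strand, so reads of the overlapping part cannot be told apart. Ligand and receptor were read together, as Igf1 and Igf1r, in 54.1% of Dcn-high and 8.38% of Rgs5-high wells and in 1 of 27 Trf-high wells.

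Of 28 other genes of the IGF system, 16 passed the filter on low values. In Rgs5-high wells 1 was called higher and 2 lower, in Dcn-high wells 1 higher and 0 lower, and in Trf-high wells 4 higher and 1 lower, beside 8.93%, 8.4% and 14.5% of all genes, so that 1 of 16 in Dcn-high wells was no more than the share of all genes. Median log2 fold changes over the 16 were 0.01, -0.03 and 0.53, against 0.09, 0.07 and -0.12 over all genes. Stc1 and Stc2, the stanniocalcins that block the proteases of Igfbp4 and Igfbp5, went apart. Stc1 had 126.6 and 110.2 CPM in Rgs5-high, 1.35 and 2.56 CPM in Dcn-high, and 2.45 and 38.8 CPM in Trf-high wells (4.20 ± 0.89 in Rgs5-high wells, adjusted p = 0.046, edgeR, and 0.064 with the tumor as a replicate block). Stc2 had 0.0709 and 0.344 CPM in Rgs5-high, 125.8 and 52.5 CPM in Dcn-high, and 25.4 and 52.8 CPM in Trf-high wells, which was lower by 8.14 ± 1.04 in Rgs5-high wells (adjusted p = 0.010) and higher by 4.96 ± 0.69 in Dcn-high (adjusted p = 0.013) and by 3.19 ± 0.66 in Trf-high wells (adjusted p = 0.032, and 0.072 with the block).

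The other calls were in Trf-high wells. Grb14, an adaptor that dampens insulin receptor signalling, had 275.04 and 119.1 CPM there against 1.80 to 12.6 CPM in the other 4 libraries (4.69 ± 0.67, adjusted p = 0.011, edgeR). Kazald1, a relative of the binding proteins, had 60.2 and 33.02 CPM against 3.33 to 6.75 (3.30 ± 0.43, adjusted p = 0.0084), and it was lower in Rgs5-high wells by 2.34 ± 0.50 (adjusted p = 0.047, and 0.097 with the block). Foxo1, a transcription factor held out of the nucleus by insulin and IGF signalling, had 133.6 and 248.04 CPM against 38 to 56.1 (2.04 ± 0.32, adjusted p = 0.015). Adam12, a protease that cuts Igfbp3 and Igfbp5, had 0 and 6.75 CPM against 122.4 to 182.2 (-5.21 ± 0.98, adjusted p = 0.024). H19, the imprinted neighbour of Igf2, was called only with the tumor as a replicate block, higher in Trf-high (adjusted p = 0.031) and lower in Rgs5-high wells (adjusted p = 0.047), and all its reads in Trf-high wells of tumor 1 came from 1 of 7 wells.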

How the data were processed

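Single cells were sorted into wells and sequenced by the authors with Smart-seq2 (single-end reads of 43 bases). Per the study's methods, the authors aligned reads to mm10 with STAR (v2.3.0), quantified RefSeq genes and normalized the counts to RPKM with rpkmforgenes. They deposited a table of raw read counts and a table of RPKM values for the same wells, ERCC spike-ins included. Strand is not stated to have been used.

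The 10 members, the marker lists and the IGF list were chosen with earlier results of these data known. Each kept well (at least 10000 endogenous reads) went to the marker (Rgs5, Dcn or Trf) with the highest log2(RPKM + 1), given an RPKM of 50 and a margin of 2 log2 units. No doublet caller was run. The 24 wells whose leading marker lay less than 2 log2 units above another stayed without a class. Wells with 2 high markers further apart were given a class. The summed RPKM of the matrix list reached 3490 in Rgs5-high wells, and that of the vascular list 1647 in Dcn-high wells. Whether such wells held 2 cells was not tested. Counts were summed per class and tumor into 6 libraries of 1815459 to 55093971 endogenous reads and tested with edgeR 4.0.16 (R 4.3.3; glmQLFit and glmQLFTest, TMM, genes with a mean RPKM of 1 or more, Benjamini-Hochberg, adjusted p of 0.05). The methods were tested on simulated data. The SE is the log2 fold change divided by the square root of F. Intervals of shares are exact binomial (95%) and cover counting error only. Named genes were the members, the genes of the IGF list that were called, and the 3 genes closest to each member called higher in a class by Spearman's rho. Some genes of these lists are not reported here. Promoter windows are from RefSeq (GRCm38.p6), motifs were searched as letters, and figures were drawn with matplotlib 3.10.9.

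Libraries of the same tumor come from the same animal and are thus paired. Their deviations from the class means had correlations of 0.130 (Rgs5-high and Dcn-high), 0.0611 (Rgs5-high and Trf-high) and -0.00675 (Dcn-high and Trf-high). The fit with the tumor as a replicate block was an alternative, and its p is given where it changed a call. Other alternatives were DESeq2 1.42.0 and its size factors, ERCC totals as library sizes, other filters, other class rules and leaving out each tumor. Levels were also taken with a pseudocount of 0.1 and as medians, and shares of wells with a read also with at least 5 reads, with an RPKM of 1 and after thinning wells to 50000 reads. No pair of wells had identical counts.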

Additional observations from a re-analysis of the deposited data

Results flagged for a closer look

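In some contrasts against the mean of the other classes the tumors, fitted separately, had log2 fold changes of opposite sign. The difference between the tumors was not tested, and tumor and plate cannot be told apart. In Trf-high wells Igfbp4 was at 1.16 in tumor 1 and -0.22 in tumor 2, Igfbp3 at -0.15 and 2.21, and Igf2r at -0.45 and 0.069. These rest on 7 Trf-high wells in tumor 1 and 20 in tumor 2, and 1 well held 57.01% and 46.2% of the Igfbp3 reads.

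The ligands showed the same in contrasts that include the Trf-high library of tumor 1, which had no read of either. Igf1 in Rgs5-high wells was at 3.39 in tumor 1 and -0.70 in tumor 2, Igf2 in Rgs5-high wells at 8.28 and -0.84, and Igf2 in Dcn-high wells at -0.74 and 0.99. With an empty library the fitted value of tumor 1 depends on the prior count and is no bound.

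The 41 wells left out for low depth, with at most 9665 endogenous reads each, still held reads of the members. As CPM of their summed endogenous reads they had 2024.8 of Igfbp5, 1157.0 of Igfbp7, 827.9 of Igfbp4, 159.6 of Igf2r, 119.7 of Igfbp6, 89.8 of Igfbp3, 79.8 of Igf2, and 39.9 each of Igf1r and Igfbp2. Igfbp7 was read in 32 of these wells and Igfbp5 in 10. The Igf2 reads came from 1 well. Their class was not set.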

How the results depend on the processing

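With the tumor as a replicate block, which pairs the libraries of an animal, genes called fell to 5.41% of the 11715 genes in Rgs5-high and 5.51% in Dcn-high wells. Igfbp3 (Rgs5-high and Dcn-high) and Igfbp5 (Dcn-high) lost their calls, as given in the report, and the block changed no other call of a member against the mean of the others. DESeq2 called 20.1%, 18.7% and 29.3% in Rgs5-high, Dcn-high and Trf-high wells, ERCC totals 14.75% in Rgs5-high wells, an adjusted p of 0.001 left 0.333%, 0.0427% and 0.188%, and Rgs5-high against Dcn-high alone gave 5.88%. The number of members called higher in Rgs5-high wells went from 0 to 1 (Igfbp7) with DESeq2, without the gene filter, at a minimum of 50000 reads, with 3 marker genes per class, without wells with an Epcam read, and against Trf-high alone. At 0.001 it was 0 in Dcn-high and 0 in Trf-high wells, and against Dcn-high alone 1 in Trf-high wells.

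Of the log2 fold changes of members under alternatives with a test, 87.7% kept direction and side of the threshold, 13 gained a call, 40 lost one and 17 turned direction, and the cause was not tested. Against a single class the sign turned for Igf1 in Rgs5-high (3.13, Trf-high), Igf1r in Rgs5-high (-0.50, Dcn-high), Igf2 in Dcn-high (-0.40, Rgs5-high), Igfbp5 in Dcn-high (-2.54, Trf-high), Igfbp7 in Dcn-high (-0.53, Rgs5-high), Igfbp6 in Trf-high (0.14, Rgs5-high), and, against Dcn-high, Igf2r (0.10), Igfbp2 (-0.99), Igfbp3 (-1.21) and Igfbp4 (-1.05) in Trf-high wells. With ERCC totals it turned for Igf1r (-0.24) and Igf2r (-0.25) in Rgs5-high and Igf2r in Dcn-high (0.048) and Trf-high (0.20) wells. Without Epcam wells it turned for Igf1 in Rgs5-high (0.38) and Igf2 in Dcn-high wells (-0.29), and with the block for Igf2 in Dcn-high wells (-1.34). Leaving out a tumor gave ranges of -0.70 to 3.39 for Igf1 and -0.84 to 8.28 for Igf2 in Rgs5-high wells, -0.74 to 0.99 for Igf2 in Dcn-high wells, and -0.45 to 0.069 for Igf2r, -0.15 to 2.21 for Igfbp3 and -0.22 to 1.16 for Igfbp4 in Trf-high wells. These fits on 3 libraries have no test, and 54 of 60 kept their direction.

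Of the class means of log2(RPKM + 1), 88 moved by more than their spread and 32 did not with a pseudocount of 0.1 or with medians, and of the shares of wells with a read 55 moved with a minimum of 5 reads, an RPKM of 1 or thinning to 50000 reads. By read count in place of RPKM, Igfbp7 led 48.8% and 49.3% of Dcn-high wells and Igfbp5 led 85.7% and 90% of Trf-high wells. Trf-high libraries, with the fewest wells and reads, limit what can be seen of Igf1, Igf2 and Igfbp6.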
